A study of Rattus norvegicus with 31 samples.

Results

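The 10 genes described here code for claudins and other tight junction proteins: Cldn2, Cldn15, Cldn3, Cldn4, Cldn7, Cldn8, Cldn23, Ocln, Tjp1 and Cgn. They were taken by symbol from the deposited count table, which lists 20207 genes, and all 10 were found. RNA was sequenced from the kidney cortex and the colon of rats (Rattus norvegicus) in 3 groups. NC rats were normal controls, HS rats were a high-salt model, and CAL rats received a high-salt diet and calcitriol, which is the hormone form of vitamin D. Of 31 libraries, the NC group gave 5 of cortex and 5 of colon, the HS group 4 and 5, and the CAL group 6 and 6. Strain, age, salt content, calcitriol dose and duration were not used here, and no label says whether the libraries of a group came from separate animals, so each p measures only the spread between these samples.

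Tight junctions are belts of protein that seal neighbouring epithelial cells to each other near their apical surface and set what can pass between the cells. Claudins form the strands of the belt, some as paracellular pores for small ions and some as barriers, and occludin (Ocln) is a second membrane protein of the strands. Zonula occludens 1 (Tjp1) and cingulin (Cgn) lie under the membrane, in the cytoplasmic plaque that ties the strands to actin. The kidney tubule and the colon both move salt and water across such epithelia, and each segment carries its own set of claudins.

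Counts totalled 289529 to 2265164 in the cortex libraries and 267976 to 918820 in the colon libraries. A count of 0, taken to allow 3 counts, corresponds to at most 1.32 to 11.2 CPM (counts per 1000000 counts) across the 31 libraries, for counting error only. Levels below are CPM scaled with trimmed means (TMM) over all 31 libraries, so that both tissues are on 1 scale. They are not divided by transcript length, and levels of different genes are therefore not compared. Summed markers of proximal tubule were at 6419 to 8698 CPM in the NC cortex and at 0 to 38.9 CPM in the NC colon. One colon library went against its label: in HS colon replicate 3, 5 small-intestine markers (Lct, Apoa4, Fabp2, Fabp6 and Alpi) summed to 17843 CPM, against 12.4 to 148 CPM in the other colon libraries. Fold changes of the 10 genes that use the HS colon group are therefore given with and without it.

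Windows at the annotated starts of 7 of the 10 genes were found in the RefSeq promoter table of the GRCr8 build. Of these, 3 are printed. They are those of Cldn3 and Cldn7, whose counts were much higher in colon, and of Cldn8, whose counts were alike in both tissues. In the windows of Cldn8 and Tjp1, the 50 bases after the start already hold the ATG that opens the coding sequence. The 250 bases before the start of these genes may therefore be transcribed sequence instead of promoter, which was not tested. Each sequence is the 250 bases before the gene's start, read 5′ to 3′ on the gene's strand, with matches to a GC box (GGGCGG on either strand) in capitals.
Cldn3, chr12:27346548-27346797, minus strand: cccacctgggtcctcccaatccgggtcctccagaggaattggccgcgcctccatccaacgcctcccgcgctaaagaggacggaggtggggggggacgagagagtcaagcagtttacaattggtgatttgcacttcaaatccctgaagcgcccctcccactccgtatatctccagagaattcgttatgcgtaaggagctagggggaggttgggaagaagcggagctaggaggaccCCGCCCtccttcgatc
Cldn7, chr10:55188420-55188669, plus strand: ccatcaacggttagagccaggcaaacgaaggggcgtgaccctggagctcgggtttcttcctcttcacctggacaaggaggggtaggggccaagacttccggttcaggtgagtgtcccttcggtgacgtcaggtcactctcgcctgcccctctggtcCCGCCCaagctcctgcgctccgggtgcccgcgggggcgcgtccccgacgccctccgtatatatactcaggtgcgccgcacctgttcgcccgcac
Cldn8, chr11:41364331-41364580, minus strand: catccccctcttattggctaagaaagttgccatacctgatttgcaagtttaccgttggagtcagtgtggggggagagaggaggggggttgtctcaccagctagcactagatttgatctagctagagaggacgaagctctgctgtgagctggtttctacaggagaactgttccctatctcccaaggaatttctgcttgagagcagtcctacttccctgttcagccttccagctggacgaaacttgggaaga
The GC box lay 16 bases before the start of Cldn3 and 94 bases before that of Cldn7, both times on the opposite strand, and no match lay in the Cldn8 window. In windows from 250 bases before to 50 bases after the start, 4 of the 7 genes (Cldn15, Cldn3, Cldn7 and Cgn) held a GC box, against 33.1% of 33469 RefSeq promoters of the same length. None of the 7 windows held TATAAA (14.2% of all promoters), TTTATG, the core letters of a CDX site (12.7%), AACCNGGTT, a grainyhead element (0.365%) or CAAAGTCCA, an HNF4 element (0.391%). An HNF1 element (0.0448% of all promoters) and the direct repeat of a vitamin D receptor site (0.0239%) also had no match. All were searched on both strands. The windows of Cldn8 and Tjp1, which reach coding sequence, are among the 7, and how many of the 33469 do so was not counted. Cldn3 and Cldn4 are direct neighbours on chromosome 12 of this assembly.

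Control colon was first compared with control cortex. It had more RNA of 8 of the 10 genes and less of Cldn2, while Cldn8 was at the same mean level in both. Of the 10 genes, 9 passed the edgeR quasi-likelihood test over all genes (adjusted p under 0.05), as did 58.8% of the 9128 genes tested, 30.4% higher and 28.4% lower in colon. Cldn7, Cldn15 and Cldn23 were too low for the filter on counts in cortex alone and entered this test through their colon counts. Their direction was thus largely set by the filter, and they are among the 9 that passed. The tissues did not overlap for 6 genes higher and 1 lower in colon, 7 in all, against 24% and 23.9%, or 47.9% in all, of the genes tested. The 6 include Cldn7 and Cldn23. The median log2 fold change of all 10 genes, with Cldn7, Cldn15 and Cldn23 among them, was 2.495, beside 0.06 for all genes tested. In bulk tissue, fewer cells of a type and less RNA per cell cannot be told apart.

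The pore-forming claudins went in opposite directions. Cldn2, the cation and water pore of the proximal tubule, was at 345, 466, 394, 422 and 358 CPM in the NC cortex and at 54.8, 28.4, 88.2, 35.3 and 36.6 CPM in the NC colon. The highest colon library lay well under the lowest cortex library. Its log2 fold change was -3.08 (SE 0.31, adjusted p = 1.13e-10 by edgeR), with means of 397 ± 49.0 and 48.7 ± 24.1 CPM (SD, n = 5 each). Cldn15, a sodium pore of the intestine, was at 0 to 19.0 CPM in cortex (23 counts over 5 libraries) and at 99.0, 20.9, 80.4, 6.31 and 23.9 CPM in colon. Its groups overlapped, since colon replicate 4 lay below cortex replicate 1, and the log2 fold change was 2.70 (SE 0.64, adjusted p = 4.96e-04 by edgeR).

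Among the other claudins, Cldn23, a claudin of the colon's luminal surface, had the widest gap. Only 5 counts were found over the 5 NC cortex libraries, 2 of which had none, whereas the NC colon libraries stood at 239, 233, 244, 270 and 264 CPM. The log2 fold change was 7.21 (SE 0.47, adjusted p = 2.01e-15 by edgeR) and its size rests on those few cortex counts. As Cldn23 entered the test through its colon counts, this p adds no separate support for the direction. Cldn3, a barrier claudin, was at 34.5 to 58.0 CPM in cortex and at 1539, 1691, 1369, 2144 and 1845 CPM in colon (log2 fold change 5.11, SE 0.31). Its neighbour Cldn4, also a barrier claudin, was at 13.6 to 34.6 CPM in cortex and at 479 to 780 CPM in colon (4.63, SE 0.34). Cldn7, which is found along the lateral membrane as well as at the junction, was at 2.01 to 7.30 CPM in cortex and at 173 to 272 CPM in colon (5.76, SE 0.34). None of these 4 claudins overlapped between the tissues.

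Cldn8 stood apart. This claudin of the collecting duct and distal colon, a barrier against sodium leak, was at 99.3, 108, 109, 107 and 118 CPM in the NC cortex and at 81.3, 139, 132, 106 and 82.8 CPM in the NC colon. The colon libraries lay on both sides of the cortex libraries, and the means were 108 ± 6.60 and 108 ± 27.0 CPM (SD, n = 5 each). The log2 fold change was -0.003 with a 95% interval of -0.66 to 0.65 (adjusted p = 0.995 by edgeR), so differences up to those bounds remain possible.

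Occludin was at 49.9 to 100 CPM in cortex and 269 to 432 CPM in colon (log2 fold change 2.29, SE 0.26, no overlap). The plaque genes differed less. Cgn was at 31.1 ± 7.14 CPM in cortex and 89.0 ± 22.6 CPM in colon (1.52, SE 0.23, no overlap), and Tjp1 at 27.2 ± 6.13 and 58.1 ± 24.6 CPM (1.08, SE 0.27, adjusted p = 7.49e-04 by edgeR, with overlap; SD, n = 5 each). Summed epithelial markers (Epcam, Cdh1, Krt8, Krt18 and Krt19) were at 1192 to 1324 CPM in the NC cortex and 11617 to 14530 CPM in the NC colon, and their part in these differences was not tested.

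**Figure D1:**
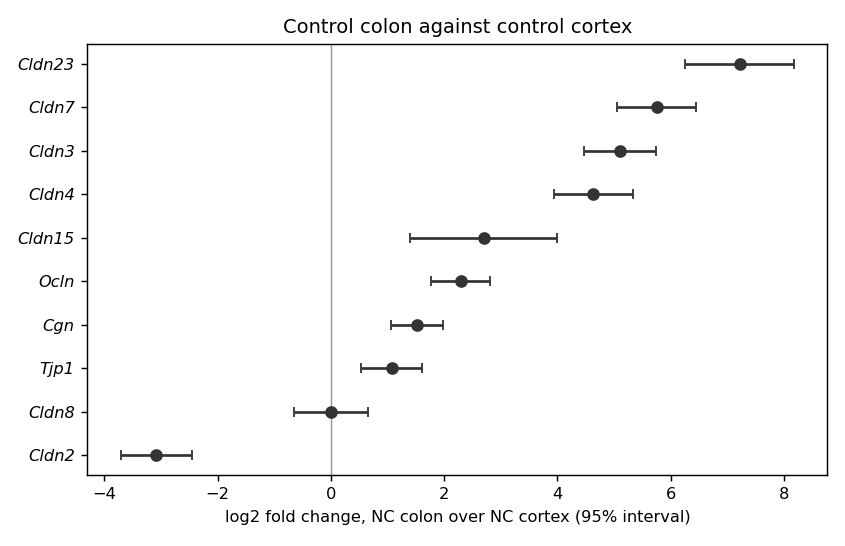
Log2 fold change of each gene in control colon over control cortex (x axis), with 95% intervals from the fit over 31 libraries. Cldn23, at 7.21, is the highest, Cldn8 sits at 0 and Cldn2, at -3.08, is the only gene whose interval lies wholly below 0.

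The other tight junction genes were a list of 52, of which 35 were tested. Of the list, 33 passed the filter on counts in cortex alone and 29 in colon alone, and of its claudins 7 and 2. For genes that entered through 1 tissue, the direction was largely set by the filter. In the NC colon 17 of the 35 were higher and 8 lower, against 30.4% and 28.4% of all genes tested. Of those higher, the tricellular junction protein Lsr (log2 fold change 2.70), Epcam, which binds Cldn7 (2.06), and the myosin light chain kinase Mylk (3.43) had the smallest p. Mylk is also a gene of smooth muscle. Summed smooth muscle markers were at 13.7 to 30.9 CPM in the NC cortex and at 1508 to 9898 CPM in the NC colon, and their part in the Mylk difference was not tested. Of those lower, the paracellular ion pore Cldn10 (-8.28), the cingulin relative Cgnl1 (-5.74) and Cldn16, the magnesium and calcium claudin of the thick ascending limb (-5.66), led. Cingulin and its relative thus had opposite tissue differences, with Cgnl1 at 411 ± 40.4 CPM in cortex and 7.29 ± 4.82 CPM in colon (SD, n = 5 each). Of 14 adherens junction and desmosome genes tested, 12 were higher in colon and none lower, against the same 30.4% and 28.4% of all genes. They were led by the desmosomal cadherin Dsc2 (7.62) and by Cdh1, E-cadherin (3.63). Of this list, 9 genes passed the filter on counts in cortex alone and 13 in colon alone. For those that entered through their colon counts, the direction was largely set by the filter.

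High salt was then compared with control in the kidney cortex. Cldn8 was higher in every HS library than in every NC library and Cgn was lower, but neither passed the test over all genes. Cldn7, Cldn15 and Cldn23 were too low for the filter on counts, which left 7 genes, of which 0 passed by edgeR, while 11% of 7524 genes did. At an unadjusted p under 0.05 there were 2 (27.3% of all genes), and DESeq2 called 0. The groups did not overlap for the same 2, against 13.1% of all genes (7.44% higher and 5.64% lower in HS). Fold changes within a tissue come from a fit to that tissue's 3 groups.

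Cldn8 was at 126, 144, 157 and 162 CPM in the HS cortex, above the 99.3 to 118 CPM of the 5 NC libraries. The CAL libraries spanned both groups, from 75.6 to 149 CPM with a median of 110. Its log2 fold change for HS over NC was 0.48 (SE 0.16, adjusted p = 0.0555 by edgeR), a 1.40-fold difference. It passed in 5 of 23 alternative settings, with only the NC and HS libraries in the fit (0.0240), with robust empirical Bayes (0.0497), with voom and library weights (0.0321), and without CAL cortex replicate 1 (0.0493) or 6 (0.0253). Summed markers of principal cells, the collecting duct cells in which Cldn8 is known, were at 1221 to 1540 CPM in NC, 1132 to 1646 in HS and 1158 to 1938 in CAL, with 0 of 5 called between HS and NC. Markers of the distal convoluted tubule summed to 565 to 822 CPM in NC, 1006 to 1758 in HS and 560 to 2206 in CAL. Between HS and NC, 1 of 3 tested was called higher (Calb1), and the part of these markers in the Cldn8 values was not tested.

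Cgn was at 26.3, 28.1, 23.7, 38.2 and 39.2 CPM in the NC cortex and at 19.9, 21.4, 13.9 and 14.6 CPM in HS. All 4 HS libraries lay below the lowest control, on 39 counts in all. The log2 fold change was -0.76 (SE 0.28, adjusted p = 0.0788 by edgeR), and it passed in 0 of 23 alternatives. Of the remaining genes, Tjp1 stood at 0.48 (adjusted p = 0.224), Ocln at 0.31 (0.352), Cldn2 at 0.20 (0.302), Cldn4 at 0.10 (0.889) and Cldn3 at -0.64 (0.215) on the log2 scale. The 95% intervals of these 5 all included 0. The interval of Cldn2, the best counted of them, ran from -0.05 to 0.45.

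Calcitriol with high salt was compared with high salt alone. In the cortex 0 of 7 genes passed by edgeR or DESeq2, against 0.758% of all genes by edgeR, and 2 were at an unadjusted p under 0.05 (16.2% of all genes). Cldn2 had a log2 fold change of -0.28 (SE 0.12, adjusted p = 0.239 by edgeR), with HS libraries at 464, 448, 372 and 481 CPM and CAL libraries from 326 to 436 CPM with a median of 365. Cldn8 had -0.36 (SE 0.16, adjusted p = 0.253 by edgeR), and both genes' groups overlapped. Cgn stood at 0.44, Cldn3 at 0.43, Tjp1 at 0.29, Cldn4 at -0.07 and Ocln at -0.29, none with an adjusted p below 0.461. This comparison and that of HS with NC share the HS libraries, so opposite signs in them are not independent.

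Against NC, 4 of the 7 genes were above 0 and 3 below in the CAL cortex. Of them 0 passed by edgeR or DESeq2, as did 0% of all genes by edgeR, and 1 was at an unadjusted p under 0.05 (11.9% of all genes). This was Tjp1, which was at 30.7, 35.4, 27.3, 22.1 and 20.5 CPM in NC and at 25.1 to 56.2 CPM in CAL with a median of 50.1. CAL replicate 2 lay within the controls and the other 5 CAL libraries above the highest of them. The log2 fold change was 0.76 (SE 0.21, adjusted p = 0.163 by edgeR). The HS libraries, at 26.5, 33.6, 45.2 and 46.2 CPM, lay partly in the NC range.

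Among the other tight junction genes, 33 were tested in the cortex, and 1 rose and 1 fell in HS, against 7.35% and 3.69% of all genes. Mpp5, the polarity scaffold also called Pals1, rose from 65.9 ± 14.99 CPM in NC (n = 5) to 113 ± 11.1 CPM in HS (n = 4; log2 fold change 0.80, SE 0.17, adjusted p = 0.00470 by edgeR). Its groups did not overlap, at 46.1 to 81.7 and 97.3 to 124 CPM, and it passed in all 23 alternatives, with adjusted p from 0.00216 to 0.0248. Sympk, a scaffold of RNA 3′ end processing that is also found at tight junctions, fell by 1.17 (SE 0.31, adjusted p = 0.0196 by edgeR). Its call was lost without HS replicate 2 (0.0891), HS replicate 4 (0.0751) or NC replicate 3 (0.0534). Of 9 adherens junction and desmosome genes tested, Jup, plakoglobin, fell by 0.72 (SE 0.17, adjusted p = 0.0113 by edgeR), from 168 ± 19.8 to 100 ± 17.7 CPM (SD, n = 5 and 4), and was lost without HS replicate 2 (0.0638). The median log2 fold change of the 33 was -0.18, beside -0.01 for all genes.

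With calcitriol, none of the 33 passed in the cortex by edgeR against HS (8 at an unadjusted p under 0.05) or against NC (3). Against HS the smallest p were those of Cgnl1 (log2 fold change 0.34, adjusted p = 0.176) and of the junctional adhesion molecule Jam2 (-0.80, 0.177). Against NC they were those of Mpp5 (0.48, 0.221) and Cldnd1, a claudin-domain protein (0.46, 0.307). The CAL libraries of Mpp5 ran from 80.0 to 104 CPM, between and partly within the ranges of the other groups.

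**Figure D2:**
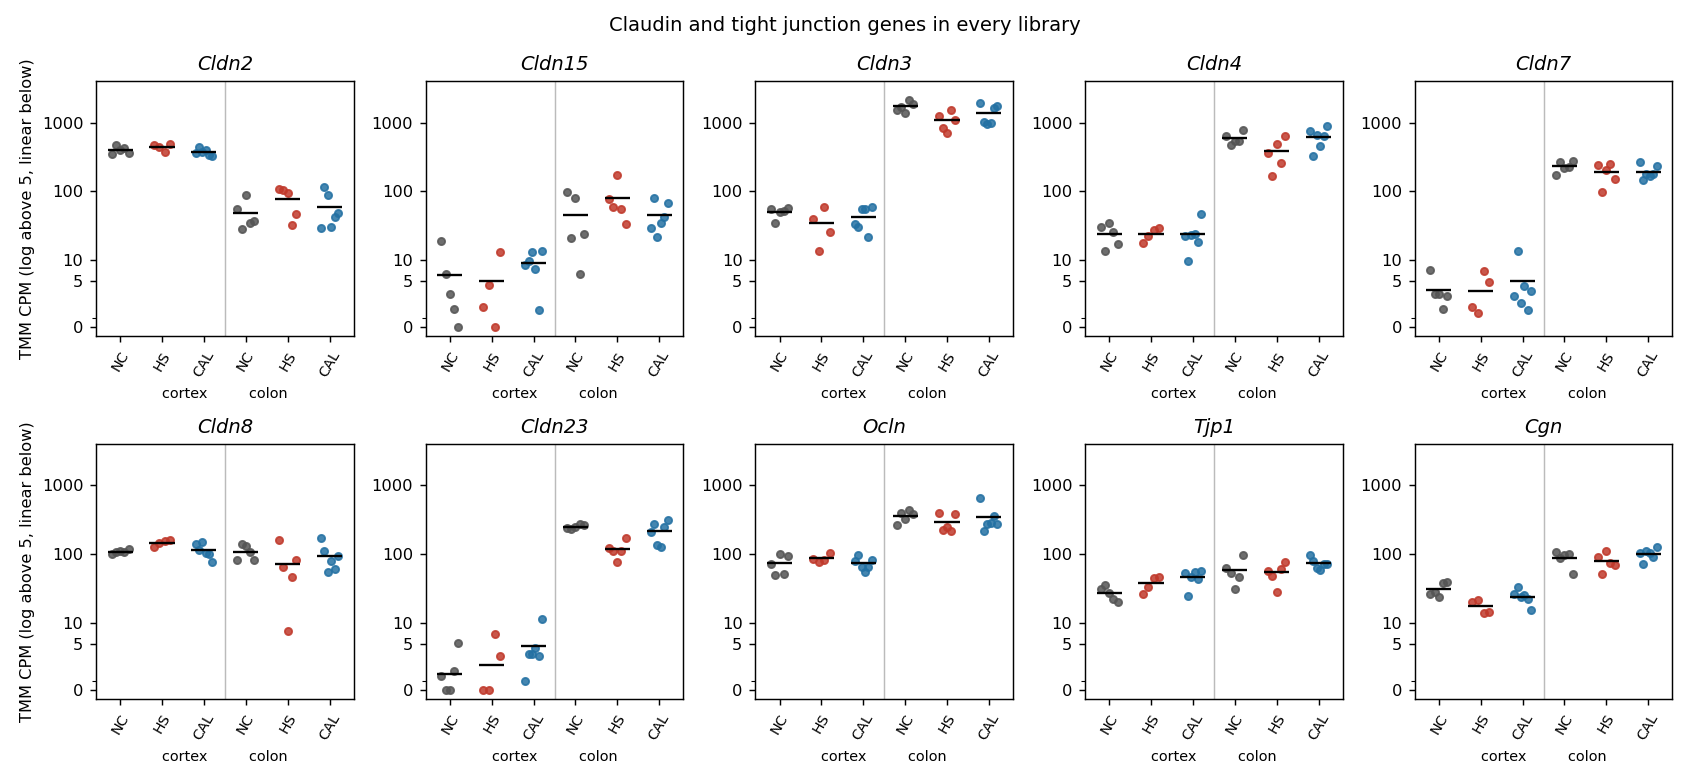
TMM-scaled CPM of each of the 10 genes in every library (points), by group in cortex and colon, with group means as bars; the y axis is logarithmic above 5 and linear below. In the HS colon, Cldn23 (77.8 to 174 CPM) lies under all NC libraries, and the single low Cldn8 point is HS replicate 3, at 7.78 CPM.

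In the colon, high salt was again compared with control. Cldn23 was lower in every HS library than in every NC library, and the other 4 barrier or non-pore claudins, Ocln, Tjp1 and Cgn also had estimates below 0, while both pore claudins were above 0. By edgeR 0 of the 10 were called, as were 0% of 7217 genes, and 2 were at an unadjusted p under 0.05 (8.51% of all genes). DESeq2 called 1 of the 10, Cldn23, and over all genes 4 higher and 16 lower of the 2584 to which it gave an adjusted p. Estimates were above 0 for 2 genes and below 0 for 8, whereas 45.8% of all genes were below 0, and the median was -0.28, beside 0.04 for all genes. Without HS replicate 3 they were above 0 for 3 and below for 7, with 0 called and 3 at an unadjusted p under 0.05, and the median was -0.28.

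Cldn23 was at 239, 233, 244, 270 and 264 CPM in NC and at 121, 112, 77.8, 111 and 174 CPM in HS. The highest HS library, replicate 5, stayed under the lowest control, as was so for 0.942% of all genes (1.4% had no overlap in either direction). The means were 250 ± 16.2 and 119 ± 34.8 CPM (SD, n = 5 each), a log2 fold change of -1.06 (SE 0.25, 95% interval -1.58 to -0.54, adjusted p = 0.262 by edgeR). Without HS replicate 3 it was -0.95 (adjusted p = 0.289 by edgeR). It passed in 3 of 27 alternatives, whose adjusted p ran up to 0.565. These were DESeq2 (adjusted p = 0.0174), edgeR with no filter on low counts (0.0421) and the latter without HS replicate 3 (0.0373). By DESeq2 without HS replicate 3 the call was lost (0.0512).

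Summed markers of surface colonocytes (Slc26a3, Aqp8, Guca2a, Car4, Car1 and Slc9a3) moved the same way as Cldn23. They were at 14146, 10755, 16202, 9969 and 11948 CPM in NC and at 11513, 7660, 4868, 7271 and 8131 CPM in HS, and at 8417 to 18288 CPM in CAL. All but 1 of the HS libraries lay below the lowest control. None of the 6 markers was called between HS and NC by edgeR, and none was at 0 in any colon library. Epithelial markers in sum were at 11617 to 14530 CPM in NC and 10634 to 19545 CPM in HS, overlapping. The part of the surface cells in the Cldn23 values was not tested.

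**Figure D3:**
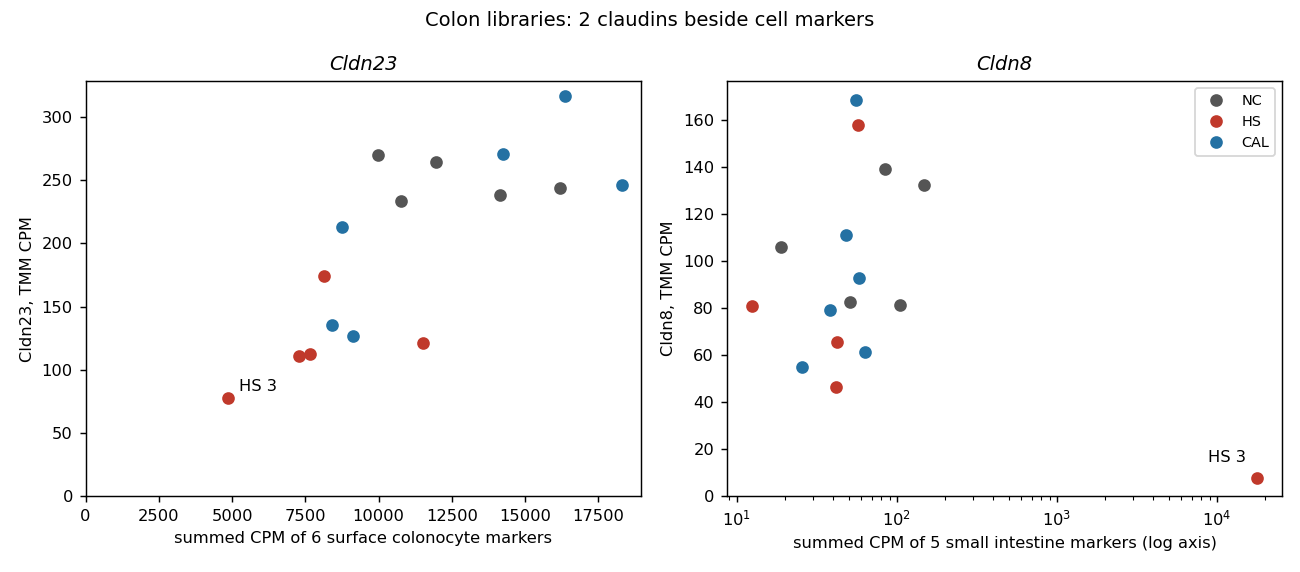
Cldn23 against the summed CPM of 6 surface colonocyte markers (left) and Cldn8 against the summed CPM of 5 small-intestine markers (right, logarithmic x axis), 1 point per colon library. The HS libraries lie between 77.8 and 174 CPM of Cldn23, and HS replicate 3 stands alone at the lower right of the right panel, with 17843 CPM of markers and 7.78 CPM of Cldn8.

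Of the barrier claudins, Cldn3 was at 1539, 1691, 1369, 2144 and 1845 CPM in NC and at 1230, 837, 695, 1521 and 1098 CPM in HS. Only HS replicate 4 reached into the control range. The log2 fold change was -0.66 (SE 0.26, adjusted p = 0.511 by edgeR), and -0.54 (0.732) without HS replicate 3. Cldn4 was at 638, 479, 539, 536 and 780 CPM in NC and at 358, 165, 482, 262 and 631 CPM in HS, with a log2 fold change of -0.64 (adjusted p = 0.582 by edgeR), or -0.75 (0.699) without HS replicate 3. Cldn7 had -0.28 (0.802), or -0.31 (0.882).

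Cldn8 was at 81.3 to 139 CPM in NC and at 158, 65.7, 7.78, 46.4 and 80.9 CPM in HS. HS replicate 1 was above every control, while replicates 2 to 5 were below every control. The HS value of 7.78 CPM rests on 3 counts in the library with small-intestine markers. The log2 fold change was -0.53 (SE 0.42, adjusted p = 0.774 by edgeR), and -0.26 (0.940) without that library.

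The pore claudins had wide spreads. Cldn15 was at 78.0, 59.3, 174, 55.6 and 34.2 CPM in HS, the highest value again in replicate 3, and its log2 fold change over NC of 0.86 (SE 0.54, adjusted p = 0.692 by edgeR) was 0.40 (0.940) without that library. Cldn2 was at 109, 106, 95.9, 32.5 and 46.7 CPM in HS against 28.4 to 88.2 CPM in NC. Of the HS libraries 3 lay above the controls and the others inside their range, and the log2 fold change was 0.74 (SE 0.41, adjusted p = 0.641 by edgeR), or 0.67 (0.817) without replicate 3. For Ocln the estimate was -0.29 (adjusted p = 0.825), or -0.24 without replicate 3. For Cgn it was -0.15 (0.921), or -0.30, and for Tjp1 -0.10 (0.963), or 0.04.

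With calcitriol, the colon estimates against HS were above 0 for 8 of the 10 genes and below 0 for both pore claudins, the same with and without HS replicate 3. With HS replicates 3 and 4 both left out, 7 were above 0 and 3 below, Cldn8 having turned to -0.13. Ocln turned to -0.08 without CAL replicate 1 and to -0.071 with voom. By edgeR 0 passed, against 0.0139% of all genes, 2 were at an unadjusted p under 0.05 (10.5% of all genes), and DESeq2 called 0. The median was 0.33 (0.19 without HS replicate 3), beside -0.03 for all genes, and 53.0% of all genes were below 0. The same HS libraries stand in this comparison and in that with NC.

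Cldn23 was at 127 to 317 CPM in the CAL colon with a median of 230, and all 6 libraries were above 4 of the 5 HS libraries. The HS library within their range was replicate 5, at 174 CPM. Its log2 fold change was 0.85 (SE 0.24, adjusted p = 0.345 by edgeR), or 0.74 (0.504) without HS replicate 3. Cldn4 was at 331 to 895 CPM in CAL with a median of 653, and the log2 fold change was 0.70 (SE 0.30, adjusted p = 0.424 by edgeR), or 0.81 (0.504). The pore claudins had -0.51 for Cldn2 (adjusted p = 0.695; -0.44 without replicate 3) and -0.85 for Cldn15 (0.590; -0.38). The other estimates were 0.43 for Tjp1, 0.35 for Cldn8, 0.33 for Cldn3, 0.32 for Cgn, 0.20 for Ocln and 0.01 for Cldn7, with adjusted p of at least 0.620. Without HS replicate 3 they were 0.28, 0.08, 0.21, 0.47, 0.16 and 0.05.

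Against NC, the CAL colon had 5 genes above 0 and 5 below, with 0 called by edgeR or DESeq2 (0% of all genes by edgeR) and 0 at an unadjusted p under 0.05 (3.85% of all genes). Cldn23 stood at -0.22 on the log2 scale (95% interval -0.70 to 0.27) and Cldn8 at -0.19 (-1.01 to 0.64). For Cldn23, 3 CAL libraries, at 213, 136 and 127 CPM, lay below the controls, and 2, at 271 and 317 CPM, above them. The medians differed little, 230 CPM in CAL and 244 in NC.

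**Figure D4:**
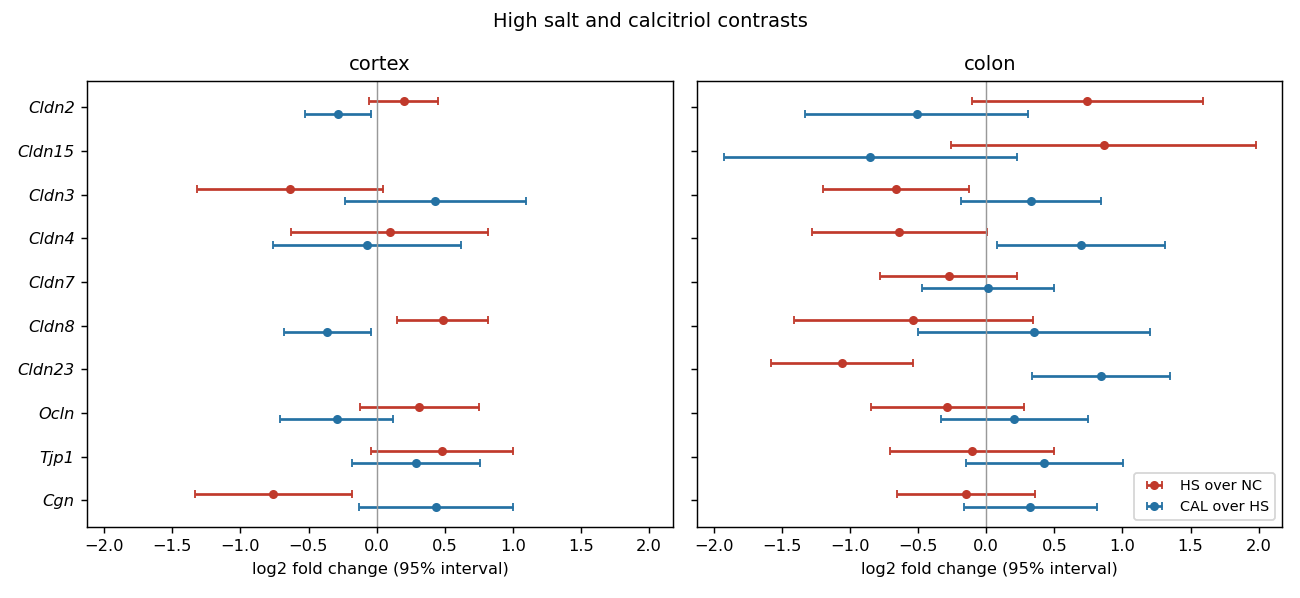
Log2 fold changes of the genes tested for HS over NC (red) and CAL over HS (blue), with 95% intervals, in cortex (left, 7 genes) and colon (right, 10 genes); the comparisons share the HS libraries. The colon estimates of Cldn23, -1.06 and 0.85, have intervals that exclude 0. So do those of Cldn3 (HS over NC) and Cldn4 (CAL over HS) in colon. In cortex, the intervals of Cldn8 (both comparisons), Cgn (HS over NC) and Cldn2 (CAL over HS) also exclude 0. None of the genes plotted passed after adjustment over all genes in the edgeR fits shown.

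Of the other tight junction genes, 29 were tested in the colon and none passed in any comparison by edgeR. Against NC, 22 were below 0 and 7 above in HS, with 3 at an unadjusted p under 0.05 and a median of -0.22. Without HS replicate 3, 21 were below 0 and 8 above, with 2 at an unadjusted p under 0.05 and a median of -0.21. Amotl2, an angiomotin relative of the junction plaque, was at 28.3 to 49.2 CPM in NC and 4.64 to 21.97 CPM in HS (log2 fold change -1.42, adjusted p = 0.290, no overlap), on 36 counts in HS, and without HS replicate 3 its log2 fold change was -1.25 (0.393). Ildr1, an angulin of tricellular junctions, had -0.91 (0.450), or -0.70 (0.678). Of CAL against HS, 23 were above 0 and 6 below, with 4 at an unadjusted p under 0.05, and the polarity protein Crb3 (0.64, 0.345) and Ildr1 (0.73, 0.424) had the smallest p. Without HS replicate 3, 24 were above 0 and 5 below, with 3 at an unadjusted p under 0.05, and these 2 genes stood at 0.64 (0.504) and 0.52 (0.648). Of CAL against NC, 2 were at an unadjusted p under 0.05, and Rab13, a GTPase of junction traffic, had the smallest p, with a log2 fold change of 0.64. The 13 adherens junction and desmosome genes tested had medians of -0.03 for HS against NC and -0.10 for CAL against HS, with 0 of them called and 0 at an unadjusted p under 0.05. Without HS replicate 3 the medians were -0.13 and 0.01, with 0 called and 1 and 2 at an unadjusted p under 0.05.

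Whether a group difference itself differed between the tissues was tested as an interaction over all 31 libraries. For HS against NC, 0 of the 10 genes passed by edgeR or DESeq2, against 0.0219% of 9128 genes by edgeR, and 0 were at an unadjusted p under 0.05 (13.4% of all genes). The difference was above 0 for 3 genes and below 0 for 7, or 4 and 6 without HS colon replicate 3. Cldn8, which was above the controls in the HS cortex and mostly below them in the HS colon, had the smallest p, with a colon minus cortex difference of -0.95 (SE 0.48, adjusted p = 0.377 by edgeR). Without HS colon replicate 3 it was -0.71 (0.446). Cldn23 had -1.62 (SE 1.09, adjusted p = 0.539), on the 10 counts of its NC and HS cortex libraries, or -1.55 (0.586) without HS colon replicate 3. For CAL against HS, 0 of the 10 passed by edgeR or DESeq2 (0% of all genes by edgeR) and 0 were at an unadjusted p under 0.05 (9.62% of all genes), also without HS colon replicate 3. The difference was above 0 for 5 genes and below 0 for 5, or 6 and 4 without that library.

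Finally, the genes were compared with each other across libraries, after the group means were taken off log2(CPM + 2). Of 66 pairs, 21 in cortex and 45 in colon, 0 passed after adjustment over the 66, and 4 cortex and 6 colon pairs were at an unadjusted permutation p under 0.05. In the 15 cortex libraries the plaque genes Tjp1 and Cgn had Pearson's r of -0.74 (permutation p = 0.00696, adjusted 0.235) and Spearman's rho of -0.75 (p = 0.00549, adjusted 0.280), with r of -0.68 when the 2 libraries farthest from the median of Tjp1 were left out. In the 16 colon libraries Cldn23 and Tjp1 had r of 0.52 (permutation p = 0.0107, adjusted 0.235) and rho of 0.49 (p = 0.0525, adjusted 0.497). Their r was 0.56 without the 2 farthest libraries and 0.40 without HS replicate 3.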

How the data were processed

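RNA from rat kidney cortex and colon was made into libraries with the tagmentation kit named in the labels' protocols, a method that keeps no strand information. Per the submitters' processing notes, the authors used FastQC 0.11.9, Trimmomatic 0.39, HISAT2 2.1.0 and featureCounts 1.6.5 with Rnor_6.0. The annotation and strand setting are not given in the sources used here, so reads of an overlapping gene on the other strand may be included. The deposited values are raw counts per gene symbol.

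The quasi-likelihood test of edgeR 4.0.16 was run on the counts (R 4.3.3, TMM, filterByExpr with minimum count 10 and minimum total 15), per tissue over 3 groups and jointly over 31 libraries, with Benjamini-Hochberg adjustment over all tested genes, a threshold of 0.05 and 95% t intervals. The scripts were tested on simulated data. Alternatives used DESeq2 1.42.0, its size factors, other filters, limma 3.58.1 voom with library weights, robust empirical Bayes, only the groups compared, a replicate block, and each library, or HS colon replicates 3 and 4, left out; DESeq2 and no filter were added in the colon without HS replicate 3 after seeing the data. The pair correlations used 100000 permutations. All 10 genes are named in every comparison they were tested in, except where counts above and below 0 stand for them. Of the other tight junction genes, up to 3 past the threshold in each direction with the smallest p are named, or 2 where none passed, and of the adherens junction and desmosome genes up to 2 past it. One gene that this rule names is not reported here. Genes, lists and alternatives were chosen with earlier results of these data known. Sequences are from RefSeq (GRCr8).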

Additional observations from a re-analysis of the deposited data

Results flagged for a closer look

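Of 60 groups of libraries (10 genes in 6 groups), 3 held a library far from the others, and chance alone marks about 1 in 20 groups. Cldn7 was at 13.5 CPM in CAL cortex replicate 2, on 7 counts, and at 1.83 to 4.51 CPM in the other CAL cortex libraries. Cldn23 was at 11.6 CPM in CAL cortex replicate 6, on 6 counts, and at 0.963 to 4.51 CPM in the others, on 2 or 3 counts each. Ocln was at 645 CPM in CAL colon replicate 1 and at 213 to 352 CPM in the others, and without that library its log2 fold change for CAL against HS turned from 0.20 to -0.08.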

How the results depend on the processing

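For the control colon against control cortex, the 9 genes called were called in all 39 alternatives. The number called for HS against NC in the cortex rose from 0 to 1 (Cldn8) with only the compared groups, with robust empirical Bayes and with voom, and ran from 0 to 1 with each library left out. In the colon it rose from 0 to 1 (Cldn23) with DESeq2 and with no filter. It was, without HS replicate 3 (added after seeing the data), 0 with DESeq2 and 1 with no filter. In the main fits, 11% of all genes passed for HS against NC in the cortex and 0% in the colon. The shares of all genes in these alternatives are not set beside the counts here, so 1 gene called may be no more than such a share. All other counts of called genes stayed at 0 in every alternative. Some log2 fold changes near 0 that are given gene by gene changed sign. None of these was called, and the cause was not tested. With voom these were Cldn8 between control tissues (0.014), Ocln for CAL against HS in colon (-0.071) and Tjp1 for HS against NC in colon (0.055). Without both HS colon replicates 3 and 4 they were Tjp1 for HS against NC (0.028) and Cldn8 for CAL against HS in colon (-0.13). Tjp1 was also at 0.032 by DESeq2 without HS replicate 3. With each library left out, the ranges were -0.12 to 0.26 for Cldn4 in HS against NC and -0.31 to 0.048 in CAL against HS (cortex), -0.14 to 0.14 for Cldn7 and -0.082 to 0.35 for Ocln in CAL against HS (colon), -0.25 to 0.16 for Tjp1 in HS against NC (colon), and -0.12 to 0.089 for Cldn8 between control tissues.

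Within a tissue, deviations of same-numbered libraries had r from -0.16 to 0.07 over 13 cortex pairs (median -0.012, against 0.0036 for unlike numbers). Over 15 colon pairs r ran from -0.23 to 0.25 (median 0.047, against -0.012). So few and scattered values cannot decide whether the numbers pair libraries within a tissue. Across tissues, r ran from -0.032 to 0.17 over 15 same-numbered pairs (median 0.045, against -0.0061 for unlike numbers). The labels do not say whether a number marks 1 animal in both tissues, and the fit over 31 libraries treated the tissues as independent. With the replicate block, 9 genes were still called between control tissues and 0 in every other comparison, and Cldn7 in CAL against HS (colon) turned to -0.035. In the colon, the highest total was 918820 counts, and a count of 0 there allows 3.27 to 11.2 CPM, which limits low genes.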
